A study of Homo sapiens with 4 samples.

Results

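The HLA class II genes, their transactivator CIITA and the invariant chain gene CD74 were examined in ChIP-seq peak lists from 2 human leukemia cell lines. The members were the 10 genes CIITA, CD74, HLA-DRA, HLA-DRB1, HLA-DPA1, HLA-DPB1, HLA-DQA1, HLA-DQB1, HLA-DMA and HLA-DMB, chosen by name and matched to the gene symbol on each line of the lists. Of the 18576 gene symbols in the 4 lists, 7 were members, and HLA-DPA1, HLA-DPB1 and HLA-DMB were on no line. RS4;11 is a B-cell precursor acute lymphoblastic leukemia line and THP-1 is a monocytic acute myeloid leukemia line. Both carry an MLL rearrangement, according to the paper. WDR5, a core subunit of the MLL histone methyltransferase complexes, and H3K4me3, the trimethylated form of lysine 4 on histone H3, were each profiled once in each line, in cells kept in the same serum-supplemented medium with no treatment named. There were thus 4 samples, 1 for each antibody and line, with no replicates. Differences between the lines therefore have no replicate check, no test between them was possible, and each value below describes 1 sample. The sample labels give the leukemia type of the other line for the THP-1 WDR5 and the RS4;11 H3K4me3 samples, so the leukemia types here follow the paper.

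HLA class II molecules are pairs of an alpha and a beta chain that carry peptides to the surface of antigen-presenting cells such as B cells, monocytes and dendritic cells, where CD4+ T cells read them. CD74, the invariant chain, holds the peptide groove until HLA-DM, the product of HLA-DMA and HLA-DMB, exchanges its last fragment for a peptide. Transcription of these genes depends on CIITA, a coactivator that binds no DNA itself and is recruited by the RFX complex, CREB and NF-Y on short promoter elements called the X and Y boxes. H3K4me3 marks the nucleosomes around the start sites of active and poised promoters.

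The lists held 24212 distinct H3K4me3 peaks in RS4;11 and 26523 in THP-1 cells, and 703 and 225 WDR5 peaks. Each line gives a peak's position on hg19 and a transcript within 20 kb of it, with no tag count, height or p-value, so the depth is unknown and width in bp is the only measure of size. Distances to the nearest peak and intervals without peaks thus refer to peaks with a transcript within 20 kb. Peaks were compared with GENCODE release 44 on GRCh37. As a check of the label, the B-lineage gene CD79A had an H3K4me3 peak at the start in RS4;11 cells alone, of 2816 bp. The myeloid genes CSF1R and ITGAM had one in THP-1 cells alone, of 2418 and 1763 bp. Against the labels, PAX5 and EBF1, transcription factors of the B lineage, were listed with a start-site peak in THP-1 cells alone, of 4037 and 2472 bp. SPI1, a factor of myeloid and B cells, had a peak of 3100 bp in RS4;11 cells and none in THP-1 cells. Whether the H3K4me3 lists are assigned to the right line was not tested, and every value by line below rests on the cell line given in the labels. Of 8 B-lineage markers, 5 had a peak in each line, and of 8 myeloid markers, 4 had one in RS4;11 and 6 in THP-1 cells. The T-lineage markers had none, at 0 of 5 in both lines, and of 4 erythroid markers EPOR alone had a peak, of 531 bp in RS4;11 cells. Of 17 genes that every cell uses, picked after other values had been seen, 8 had a start-site peak in RS4;11 and 7 in THP-1 cells, and ACTB, GAPDH and B2M had none in either. On the main chromosomes the widest listed peak was 4478 bp in RS4;11 and 4446 bp in THP-1 cells. In the same order, 465 and 277 peaks were 4000 bp or wider. Whether still wider peaks are missing from the lists was not tested. The absence of a listed peak is therefore not read below as absence of the mark.

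Few class II genes were listed with H3K4me3 at their start. A start-site peak was counted when any part of it lay between 2000 bp upstream and 500 bp downstream of a start. At the 5′ end of the annotated gene, 0 of 10 members had a peak in RS4;11 cells, where 49.2% of all 20136 protein-coding genes had one. In THP-1 cells 2 of 10 members, CD74 and HLA-DRB1, had a peak, against 55.3% of all genes. Both were without a peak in RS4;11 cells, a pattern that 11.9% of all genes shared, while 0 members showed the opposite pattern, found for 5.72% of all genes. The 5′ end of the gene is a poor guide for 4 members, because another annotated transcript starts far upstream of the canonical one, by 1726 bp for HLA-DQB1, 9227 bp for HLA-DQA1, 10980 bp for CIITA and 15997 bp for HLA-DMA. At the start of the canonical transcript, a setting chosen after seeing the data, 2 members had a peak in RS4;11 cells (HLA-DQA1 and HLA-DQB1), against 52.5% of 19856 genes. At the same starts 3 members had one in THP-1 cells (CD74, HLA-DRB1 and HLA-DQB1), against 60.0%. HLA-DQB1 was the member with a peak in both lines, the pattern of 8922 of 18810 genes on the chromosomes other than 6. A peak was listed in neither line for 6 members, and the share of all genes with that pattern was not computed. HLA-DQA1 was marked in RS4;11 cells alone, the pattern of 5.54% of all genes. CD74 and HLA-DRB1 were marked in THP-1 cells alone, the pattern of 13.1% of all genes.

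**Figure D1:**
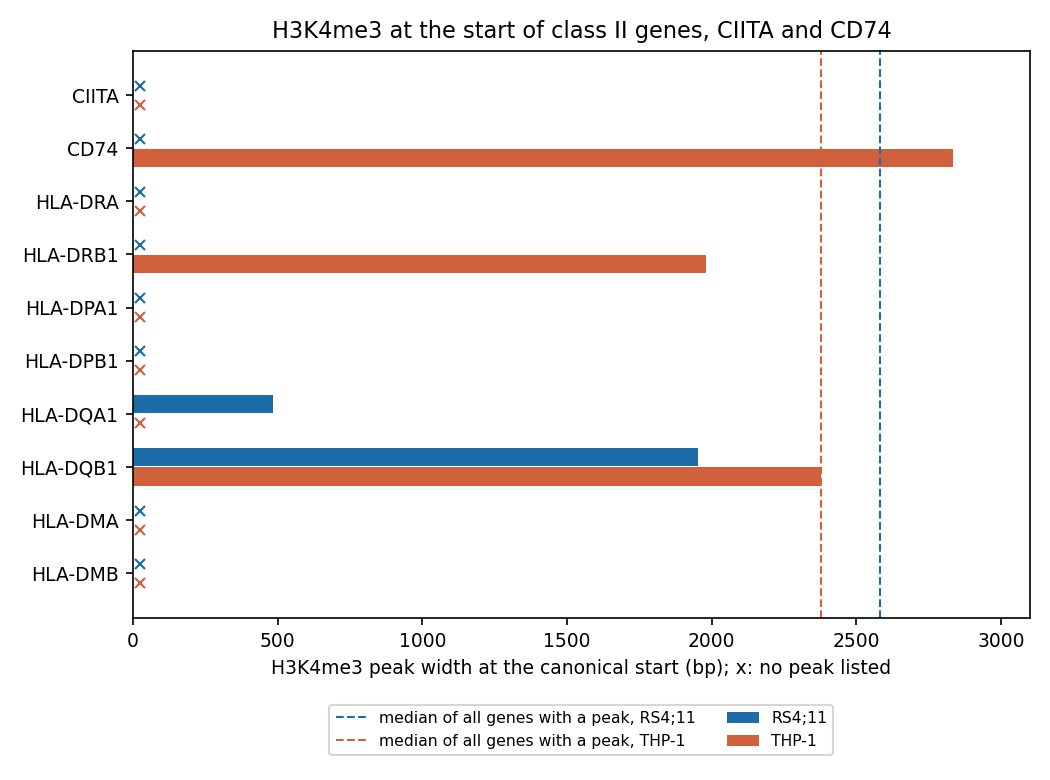
Width in bp of the H3K4me3 peak that reaches the canonical start of each of the 10 members, with RS4;11 in blue, THP-1 in orange, a cross where no peak is listed, and dashed lines at the median over all genes with a peak. CD74 in THP-1 cells, at 2833 bp, is the member value above the median of its line, and HLA-DQA1 in RS4;11 cells is the narrowest at 483 bp.

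CD74 had the widest start-site peak of the members. In THP-1 cells a single peak of 2833 bp at chr5:149790348-149793180 reached from 707 bp upstream to 2125 bp downstream of the canonical start and covered all 8 annotated transcript starts. Its width stood at percentile 68.8 of the 11921 genes with a peak in that line, whose median was 2380 bp. In RS4;11 cells CD74 was on no line of the list, and the nearest H3K4me3 peak, of 2887 bp, lay 34.8 kb upstream of the start. The 100 bases before the start, shown because the whole run lies inside the THP-1 peak, are given on the minus strand of chr5:149792474-149792573, with the Y box letters in capitals.
CD74: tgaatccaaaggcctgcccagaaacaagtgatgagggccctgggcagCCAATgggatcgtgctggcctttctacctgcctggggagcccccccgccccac
The capitals are the letters ATTGG read on the other strand and begin 53 bases before the start. This promoter also holds 1 match of the X box letters searched below, CCNAGNNAC. It is the cccagaaac left in lower case in this run, on the strand opposite to that of the Y box.

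Promoter sequences from RefSeq (build GRCh38.p14), reaching 250 bases before to 50 after the start, were present for 8 members in 9 sequences, each of which matched GRCh37 exactly at 1 place. They were searched on both strands for the X box as CCNAGNNAC, found in 16.5% of all 35116 promoters, for the Y box as ATTGG, found in 34.6%, and for the X2 box as TGNGTCA, found in 14% and among the members in HLA-DPB1 alone. A shorter X box, CNAGNNAC, was added after the data were seen, lies inside every match of the longer one, and was found in 39.3% of promoters. An X box followed by a Y box on the same strand within 40 bases was present in 0.618% of promoters, among them HLA-DQB1 and HLA-DMA. With the shorter X box the share was 1.59%, and HLA-DRB1 and HLA-DQA1 were added. Between the boxes lay 27 or 28 bases in these 4 genes. Of the 9 member sequences, 5 held the longer X box and 7 the Y box. CD74 and HLA-DMB held a match of each but no such pair, with either X box. The 4 pairs are shown so that they can be set against the peaks, with the X and Y boxes in capitals and 15 bases to each side.
HLA-DRB1: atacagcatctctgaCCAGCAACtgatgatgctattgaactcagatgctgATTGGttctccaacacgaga
HLA-DQA1: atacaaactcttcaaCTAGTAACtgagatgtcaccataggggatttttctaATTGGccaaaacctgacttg
HLA-DQB1: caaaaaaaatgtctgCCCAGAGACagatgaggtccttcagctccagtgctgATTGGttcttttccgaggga
HLA-DMA: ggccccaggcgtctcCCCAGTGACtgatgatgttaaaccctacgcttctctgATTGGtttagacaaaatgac
On GRCh37 they lie at chr6:32557652-32557721 (minus strand) for HLA-DRB1, chr6:32605064-32605134 (plus) for HLA-DQA1, chr6:32634503-32634573 (minus) for HLA-DQB1 and chr6:32920934-32921005 (minus) for HLA-DMA. A match of letters is a description of the sequence and not of binding.

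The peaks listed on chromosome 6 itself for the genes of the HLA-DR pair differed between the chains and between the lines. HLA-DRB1, which encodes the main DR beta chain, had a peak of 1980 bp in THP-1 cells at chr6:32556268-32558247, from 622 bp upstream to 1357 bp downstream of the start. It covered 3 of 5 annotated starts and the whole X and Y run shown above, and its width stood at percentile 32.9. The THP-1 list gave HLA-DRB1 another 3 peaks, of 1026 and 939 bp at 14013 and 19614 bp upstream of the start and of 687 bp at 20868 bp downstream, all outside the gene. In RS4;11 cells no peak on chromosome 6 itself was listed for HLA-DRB1, and the nearest lay 33 kb away. HLA-DRA, which encodes the single alpha chain of all DR molecules, had no peak near it on chromosome 6 itself in either line, the nearest there being 182.9 kb away in RS4;11 cells and 89.7 kb away in THP-1 cells. HLA-DRB5, a DR beta gene that is not a member, had a peak of 1036 bp at the start in THP-1 cells and none in RS4;11 cells. It was the 1 gene of 4 within 200 kb of HLA-DRB1 with the same pattern, and its peak was 944 bp narrower. The DR beta genes are near-identical in places, and uniquely aligned reads alone were kept. How far this shapes the peaks listed for each DR beta gene was not tested.

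HLA-DQ was the class II pair with marked genes in both lines. HLA-DQB1, the beta chain gene, had a peak of 1952 bp in RS4;11 cells at chr6:32633113-32635064 and of 2377 bp in THP-1 cells at chr6:32632584-32634960. The peaks shared 1848 bp, which is 94.7% of the RS4;11 peak and 77.7% of the THP-1 peak, and each covered 5 of 8 annotated starts. They began 630 and 526 bp upstream of the canonical start and ended 1321 and 1850 bp downstream of it, so both contained the X and Y run. The width stood at percentile 22.9 in RS4;11 cells, where the median was 2582 bp, and at percentile 49.8 in THP-1 cells. HLA-DQA1, the alpha chain gene, had a peak of 483 bp in RS4;11 cells at chr6:32605169-32605651, at percentile 0.69 of the line's widths. It began 14 bp upstream of the canonical start and ended 468 bp downstream, covering 5 of 6 starts, while the X box begins 104 bases and the Y box 68 bases upstream, outside the peak. A further RS4;11 peak of 469 bp lay 14130 bp upstream. In THP-1 cells HLA-DQA1 was on no line, and the nearest peak lay 27 kb from the canonical start.

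**Figure D2:**
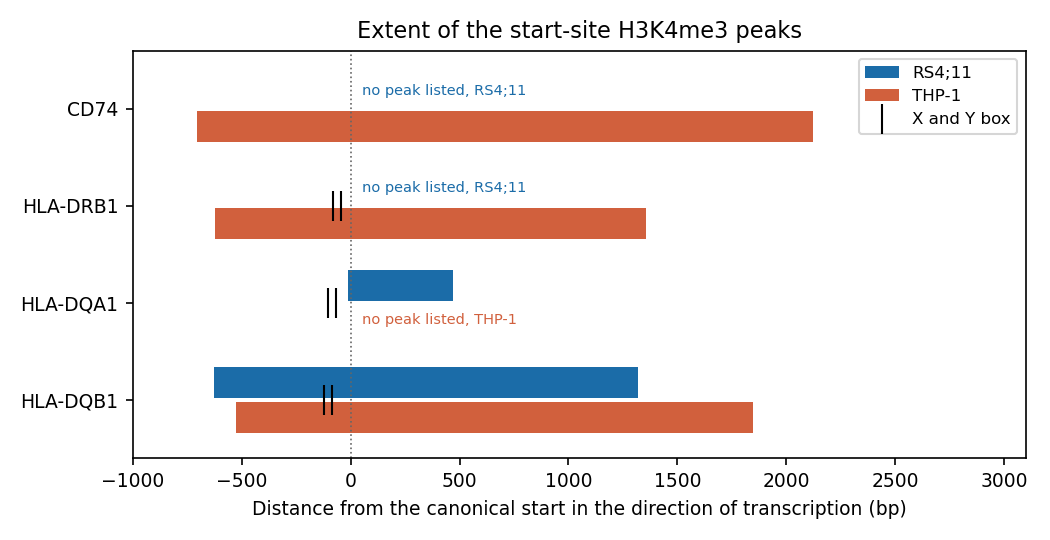
Extent of the start-site H3K4me3 peaks of CD74, HLA-DRB1, HLA-DQA1 and HLA-DQB1 in RS4;11 (blue) and THP-1 (orange) cells, in bp from the canonical start in the direction of transcription. Ticks show where the X and Y boxes of a same-strand pair begin, and CD74, which has no such pair, has no ticks. The peaks of HLA-DRB1 and HLA-DQB1 contain both boxes, and the 483 bp peak of HLA-DQA1 starts downstream of them.

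The HLA-DP and HLA-DM genes had no H3K4me3 peak on chromosome 6 in either line. HLA-DPA1 and HLA-DPB1 encode the DP alpha and beta chains, lie on opposite strands and overlap in the annotation. The nearest peak to the HLA-DPA1 start lay 345.4 kb away in both lines, and that to the HLA-DPB1 start lay 350.2 kb away in RS4;11 and 350.1 kb in THP-1 cells. For HLA-DMA the distances were 285.8 and 285.9 kb, and for HLA-DMB 273.7 and 273.8 kb. These 4 genes share 1 interval without peaks, 758.9 kb long in each line, between the HLA-DQB1 peak and a peak of 366 bp in RS4;11 and 491 bp in THP-1 cells. The X and Y run of HLA-DMA thus lies in no peak.

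**Figure D3:**
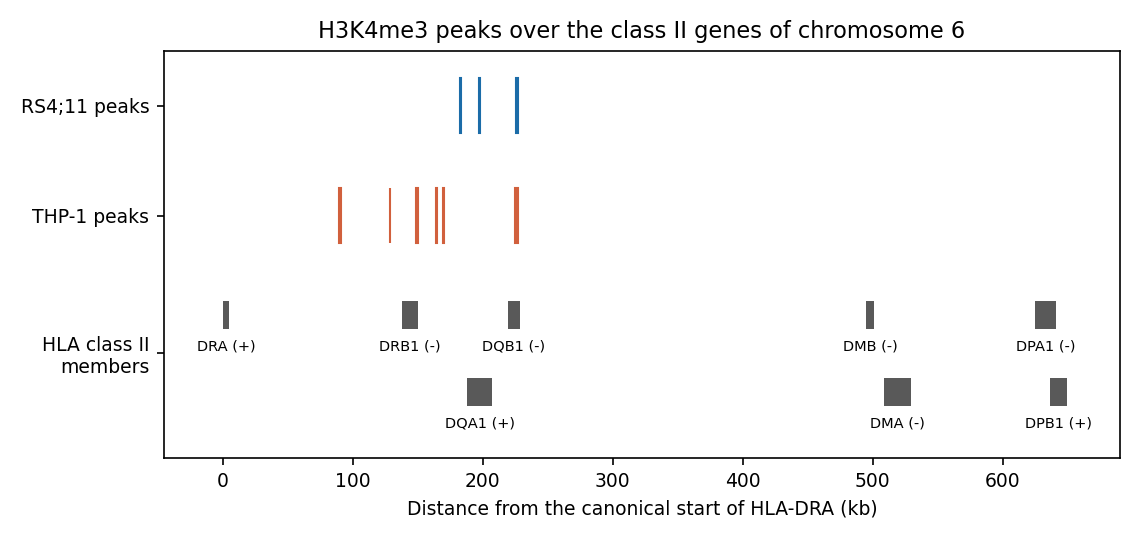
H3K4me3 peaks of RS4;11 (blue) and THP-1 (orange) cells over the 650 kb of chromosome 6 that hold the 8 HLA members (grey, with strand), in kb from the canonical start of HLA-DRA. The 3 RS4;11 and 6 THP-1 peaks all lie between HLA-DRA and HLA-DMB, and none is listed over HLA-DMB, HLA-DMA, HLA-DPA1 or HLA-DPB1.

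The whole stretch of chromosome 6 around these genes held few peaks. The genes that the lists also place on alternate haplotype sequences of chromosome 6 run over 4.89 Mb, from SCAND3 to ZBTB9, and 181 protein-coding genes have their canonical start there. Of these, 7 (3.87%) had a start-site peak in RS4;11 and 4 (2.21%) in THP-1 cells. Without the 8 HLA members the counts were 5 and 2 of 173 genes. On the rest of chromosome 6 the shares were 51.7% and 61.3% of 865 genes, and on the other chromosomes 53.0% and 60.5% of 18810 genes. Neighbours of other function thus also had few listed peaks, at 2.89% in RS4;11 and 1.16% in THP-1 cells without the members. At the canonical start, the setting chosen after seeing the data, the HLA members had a peak more often than these. Of the 8, HLA-DQA1 and HLA-DQB1 had a peak in RS4;11 cells, and HLA-DRB1 and HLA-DQB1 in THP-1 cells. At the 5′ end of the gene, no HLA member had a peak in RS4;11 cells and HLA-DRB1 alone had one in THP-1 cells. The share of the neighbours at that end was not computed. The 20 genes of the class II span stood at 10% and 15%, still below the rest of the chromosome. HLA-DRA lay in an interval without peaks of 1001.5 kb in RS4;11 cells and of 1391.6 kb in THP-1 cells. The lists also held peaks on the alternate haplotype sequences of chromosome 6, 27 in RS4;11 and 19 in THP-1 cells, with median widths of 292 and 433 bp against 1391 and 1241 bp over all peaks. Of the members, HLA-DRB1 had 2 such peaks (285 and 357 bp) and HLA-DQB1 had 1 (683 bp) in RS4;11 cells, and HLA-DRA (1260 bp) and HLA-DMA (311 bp) had 1 each in THP-1 cells. The part that alignment to several copies of this stretch plays in the missing peaks was not tested.

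**Figure D4:**
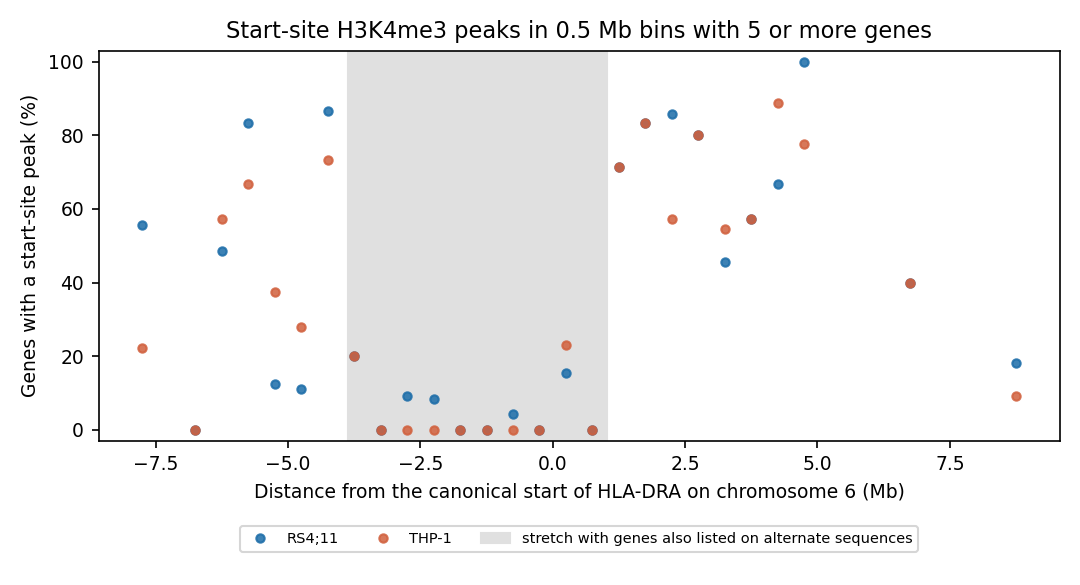
Share of protein-coding genes with an H3K4me3 peak at the canonical start in bins of 0.5 Mb with 5 or more genes, for RS4;11 (blue) and THP-1 (orange) cells. The bins cover chromosome 6 within 9 Mb to each side of the start of HLA-DRA and are placed in Mb from it. In the grey 4.89 Mb stretch the highest of 10 bins reached 20% in RS4;11 and 23.1% in THP-1 cells, and 13 and 14 of the 17 bins outside it lay above those values.

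CIITA, the regulator of the other members, was marked inside the gene in both lines and at 2 of its internal starts in THP-1 cells alone. The gene (chr16:10960079-11036878, plus strand) has 16 annotated start positions, and its transcription is known to begin at separate promoters used in dendritic cells (pI), in B cells (pIII) and after interferon gamma (pIV), in this order along the gene. A peak covered 0 of the 16 starts in RS4;11 and 2 of them in THP-1 cells. The first of these, 1767 bp downstream of the canonical start and shared by transcripts CIITA-212 and CIITA-220, lay in a peak of 1452 bp at chr16:10972151-10973602. This peak began 1092 bp downstream of the canonical start, so the canonical start and the starts up to 129 bp downstream of it were not covered. In RS4;11 cells the nearest peak to that internal start was 8771 bp away. The other covered start, that of CIITA-210 close to the 3′ end, lay in a THP-1 peak of 3177 bp that also covered the start of DEXI, a neighbouring gene. By place in the gene the first of these starts is the one that follows the canonical group, but the annotation does not name the promoters.

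Both lines had a peak in an intron of CIITA upstream of the canonical start, of 736 bp in RS4;11 and 830 bp in THP-1 cells, that shared 554 bp (75.3% and 66.7% of each) and ended 7712 and 7894 bp before that start. RS4;11 cells had another 3 peaks in introns, of 1381, 1209 and 871 bp, that began 10538, 13589 and 35239 bp downstream of the canonical start, and THP-1 cells had no peak overlapping them. Summed over the gene and 2000 bp upstream, peaks took up 4197 bp in RS4;11 and 5291 bp in THP-1 cells. Without the THP-1 peak over the DEXI start, a sum added after seeing the data, THP-1 cells had 2282 bp and the order of the lines turned. The peak at the start of CLEC16A, downstream of CIITA, was present in both lines, with 1857 and 1951 bp. The lists themselves name 1 CIITA transcript, and no peak crossed its start in either line.

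**Figure D5:**
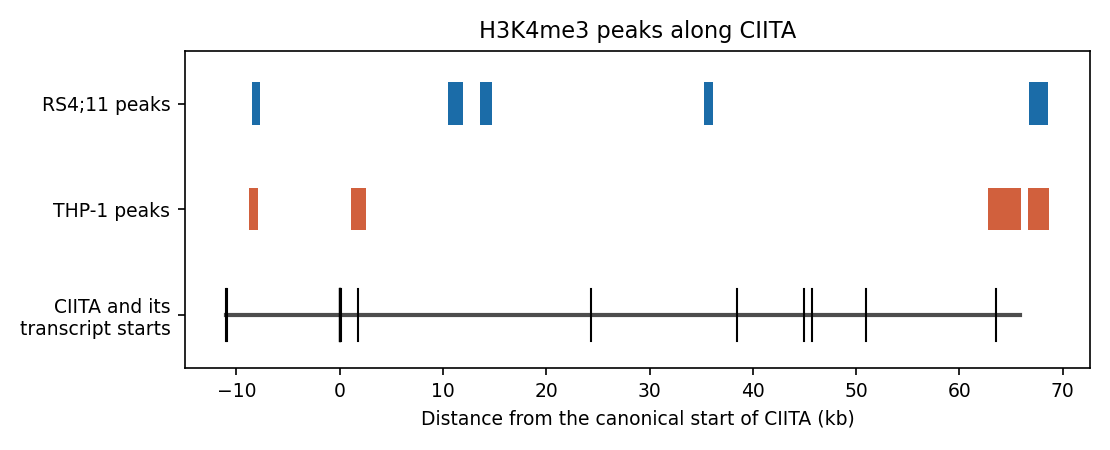
H3K4me3 peaks of RS4;11 (blue) and THP-1 (orange) cells along CIITA, in kb from its canonical start, with the gene as a grey line and its 16 transcript starts as ticks. The THP-1 peak over the start at 1767 bp downstream has no RS4;11 counterpart, whereas the peaks that end 7712 and 7894 bp upstream overlap.

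The genes that act with the members were described from lists chosen with earlier results of these data known. Of 12 factors of class II control, 10 had a peak at the canonical start in RS4;11, 7 in THP-1 and 6 in both lines. Over all genes the shares were 52.5% in RS4;11 and 60.0% in THP-1 cells, to be set beside each count by line that follows. On the chromosomes other than 6, 8922 of 18810 genes had a peak in both lines. The counts of these factors in THP-1 cells and in both lines lay near those shares. RFX5 and RFXAP, subunits of the RFX complex, were marked in both lines, at 2889 and 3594 bp in RS4;11 and 2317 and 3119 bp in THP-1 cells. RFXANK, the remaining RFX subunit, had a peak of 3038 bp in RS4;11 cells alone, and CREB1 one of 2630 bp in THP-1 cells alone. IRF1, a factor of the interferon gamma response that acts on CIITA, was marked in both, with 4204 bp in RS4;11 and 3108 bp in THP-1 cells. Of 6 genes of class II antigen processing, 5 had a peak in RS4;11 and 6 in THP-1 cells. CTSS, the protease that trims the invariant chain, had 2113 and 3787 bp, and IFI30, a thiol reductase of the same route, had 1677 and 1678 bp. CTSL was the gene of this list with a peak in THP-1 cells alone, of 1841 bp. Of the 5 other class II genes, 0 were marked in RS4;11 and 1, HLA-DRB5, in THP-1 cells. Of 12 class I genes and genes of their processing, 3 were marked in RS4;11 and 1 in THP-1 cells. NLRC5, the class I counterpart of CIITA on chromosome 16, was the gene of that list with a peak in both lines, of 2132 and 2857 bp.

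No WDR5 peak was listed for any member. The count was 0 of 10 in each line, and 0 members had a listed WDR5 peak within 100 kb of the gene. Each listed peak has a transcript within 20 kb, so this search and the distances below cover such peaks alone. Over all 20136 protein-coding genes, 3.57% were listed in RS4;11 and 1.25% in THP-1 cells, shares at which 0.36 and 0.12 of 10 genes would be listed, so 0 of 10 does not set the members apart. The closest WDR5 peak to a member lay 287738 bp from CD74 in RS4;11 cells, while the closest to CD74 in the other line was 1.26 Mb away. For CIITA the distances were 3.02 and 8.42 Mb. For the HLA members they were 1.98 to 2.62 Mb in RS4;11 and 14.96 to 15.61 Mb in THP-1 cells.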

How the data were processed

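Peak lists of WDR5 and H3K4me3 ChIP-seq came from RS4;11 and THP-1 cells, 1 sample for each antibody and line. The chromatin was sonicated for WDR5 and digested with micrococcal nuclease for H3K4me3. According to the methods, the authors used Eland for alignment to hg19, with at most 2 mismatches and unique reads kept, and called peaks with MACS at default parameters. The submitters' processing notes name CASAVA 1.7 and 1.8.2. The deposited files hold peak positions with yes or no flags for each transcript within 20 kb and no counts, so the depth is unknown. The MACS version, and whether an input control was used, are not given in the sources used here.

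From these files, lines were reduced to distinct peaks, with width as end minus start plus 1. Chromosome names and lengths were compared with GRCh37, and 0 peaks ran past a chromosome end. Peaks were set against GENCODE release 44 on GRCh37. Peaks on alternate haplotype sequences were kept apart. The members and gene lists were chosen with earlier results of these data known. By the rule for named genes, all 10 members were named and at most 6 genes of each list. The canonical start, the shorter X box and the 17 genes that every cell uses were added after seeing the data. Genes named outside the rule (DEXI, CLEC16A, SCAND3, ZBTB9, ACTB and GAPDH) were chosen after their values were seen. Percentiles are over all genes with a peak in that line. The scripts were tested on simulated data, where 200 of 200 peaks planted at starts were recovered among 19856 genes. Each planted peak covered its start, so this checks the code and not how fully real peaks are listed. Python 3.11.15 was used with matplotlib 3.10.9.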

Additional observations from a re-analysis of the deposited data

Results flagged for a closer look

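The H3K4me3 lists hold 27 peaks in RS4;11 cells and 19 peaks in THP-1 cells on alternate haplotype sequences of chromosome 6, which the comparisons at start sites did not use. They fall on 6 sequences in each line and are 182 to 1288 bp wide in RS4;11 cells and 301 to 1654 bp wide in THP-1 cells. The lists have no control sample to set them against. With these peaks, the symbols listed gain HLA-DRB1 in RS4;11 cells and HLA-DRA and HLA-DMA in THP-1 cells.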

How the results depend on the processing

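The count of members with a start-site H3K4me3 peak depended on the start. In RS4;11 cells it rose from 0 to 2 with the start of every transcript, with the canonical start and with the canonical start covered, to 3 with any listed line and to 4 with alternate haplotypes. In THP-1 cells it went from 2 to 1 when the peak center had to lie in the window, to 4 with every transcript and with any listed line, and to 6 with alternate haplotypes. Members marked in RS4;11 and not THP-1 cells rose from 0 to 1 under these 5 settings. Those marked in THP-1 and not RS4;11 cells went from 2 to 1 with the peak center and to 3 with every transcript and with alternate haplotypes. The 2 covered CIITA starts of THP-1 cells became 0 with the transcript the lists name. The share of all genes with a peak was 55.8% and 63.3% over listed genes and 52.5% and 60% at the canonical start. The number of members listed with a WDR5 peak stayed at 0 within 100 kb. Each change follows from the alternative's own definition of a start, of a listed gene or of a counted peak. Widths of CD74 and HLA-DRB1 in THP-1 cells did not move. With 1 sample per antibody and line, no replicate could be left out. No paired analysis was possible because each group has 1 sample and no result comes from a test. The files give no depth, so whether deeper sequencing would add peaks was not tested.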
